A study of Oncorhynchus mykiss with 14 samples.

Results

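The miR-29 family was followed through small RNA libraries of mature adipocytes, freed from the tissue with collagenase type II, from 3 fat depots of rainbow trout. Its members were the entries of the deposited count table whose name begins with ssa-miR-29 followed by a letter or a hyphen, from either arm of the precursor, and that were above 0 in at least 4 of the 14 libraries. This gave 8 entries, out of 327 entries of the table that meet the same minimum and 899 entries in all. A ninth entry, ssa-miR-29b-3-5p, had 14 reads in 1 visceral library and 0 in the other 13, and was left out. The names follow Atlantic salmon (prefix ssa).

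The fish were adults without any treatment, kept at 15 °C on a cycle of 12 h light and 12 h darkness, and sampled after 24 h without food. The visceral depot (VAT) had 4 libraries, numbered 1, 3, 4 and 5, and the subcutaneous (SAT) and intramuscular (IMAT) depots had 5 each. The depot was the only factor, so the comparisons ask which miRNAs differ between adipocytes from different places in the body. The libraries held 759369 (IMAT 4) to 11843805 (IMAT 5) counts on miRNA entries. Whether each library stands for its own fish is in no label. The p-values therefore cover the spread among libraries only, and that spread may be technical.

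miR-29 is a family of microRNAs, short RNAs that pair with messenger RNAs and lower their translation or stability. In mammals the family consists of miR-29a, miR-29b and miR-29c, whose main (3p) arms share the seed that selects targets, and its best known targets encode collagens, elastin and other proteins of the extracellular matrix. In rodent fat, muscle and liver its level rises in diabetes, and added miR-29 lowers insulin-stimulated glucose uptake in cultured mouse adipocytes. Both roles are background and were not measured here.

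The 8 entries comprised 6 from the 3p arm and 2 from the 5p arm, with mature lengths of 20 to 23 nt. ssa-miR-29b-2-3p (23 nt) had 2765 reads over all libraries, ssa-miR-29b-1-3p (22 nt) 987, and ssa-miR-29b-3-3p and ssa-miR-29b-4-3p (22 nt each) 964 each. ssa-miR-29a-3p and ssa-miR-29a-5p (21 nt each) had 650 and 722, ssa-miR-29c-3p (20 nt) 232 and ssa-miR-29c-5p (23 nt) 136. The family was therefore represented mainly by miR-29b, and by few reads. Each read spans a mature miRNA, so levels are given as CPM (counts scaled to 1000000 per library) and are not divided by length. The family was of modest abundance. By mean level miR-29b-2-3p ranked 125 of 228 named entries in SAT and 153 in IMAT, and a few places higher in VAT than in SAT.

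Several entries carried the same reads. miR-29b-3-3p and miR-29b-4-3p had identical counts in all 14 libraries, and miR-29b-1-3p differed from them by at most 3 reads outside VAT 4. These 3 entries were taken as 1 linked set, to which no entry outside the family belonged. The arms of miR-29a had identical counts in 8 of the 10 libraries where both were above 0, such as 153 each in VAT 4 and 256 each in VAT 5, so which arm was sequenced is uncertain. The arms of miR-29c were identical in 4 of 8 such libraries. miR-29b-2-3p was at or above miR-29b-1-3p in all 14 libraries and equal to it in IMAT 2 (12 reads) and IMAT 3 (13 reads), so the entries may share reads there as well.

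Listed zeros occurred in each depot. The 8 entries were listed at 0 in 14 cases, 6 in VAT, 3 in SAT and 5 in IMAT. Expected reads were taken from the lowest share above 0 in the same depot, at the depth of the library at 0. They were at least 20 for 5 of the 6 zeros in VAT. miR-29b-3-3p and miR-29b-4-3p in VAT 4, which carry the same reads, would then have 161 each. miR-29a-3p would have 43.6 in VAT 1, and miR-29c-3p 41.6 in VAT 3 and 61.3 in VAT 4. None of the zeros in SAT or IMAT reached that minimum, with 6.63 to 12.4 expected reads in SAT and 0.857 to 9.81 in IMAT. The minimum depends on level and depth, so it cannot compare zeros between depots. Within VAT, VAT 4 held zeros past that minimum for 35 of the 327 tested entries, against 13 to 23 in each other VAT library. A count of 0 allows a level of up to 0.253 CPM (IMAT 5) to 3.95 CPM (IMAT 4) at 3 counts per library, for counting error only.

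miR-29b-2-3p, the most abundant member, was lowest in IMAT, while VAT and SAT overlapped. Its raw counts were 234, 276, 183 and 1091 in VAT 1, 3, 4 and 5. They were 106, 154, 183, 136 and 215 in SAT 1 to 5, and 27, 12, 13 and 9 in IMAT 1 to 4. IMAT 5, the deepest library, had more reads than SAT 1 and fewer than SAT 4, which at its depth stood for 10.6 CPM before scaling. After scaling by the trimmed mean of M-values (TMM), the levels in VAT were 40.4, 31.6, 17.96 and 64.7 CPM. In SAT they were 30.4, 35.5, 40.3, 30.8 and 38.6 CPM, and in IMAT 17.0, 8.99, 9.74, 14.1 and 15.4 CPM. Every IMAT library lay below every VAT and SAT library, while VAT spanned the whole range of SAT. The means were 38.6 ± 19.6 CPM (SD, n = 4) in VAT, 35.1 ± 4.48 in SAT (n = 5) and 13.05 ± 3.53 in IMAT (n = 5). Within VAT, VAT 4 was lowest and VAT 5 highest. Counting error was wide in the shallow library. Unscaled, the 9 reads of IMAT 4 stood for 11.9 CPM, with an exact Clopper-Pearson 95% interval of 5.42 to 22.5. VAT 1 stood at 43.9 CPM (38.4 to 49.9). After TMM the nearest libraries of IMAT and VAT were IMAT 1 (17.0 CPM, 27 reads) and VAT 4 (17.96 CPM). The unscaled interval of IMAT 1 was 4.91 to 10.8 around 7.46 CPM. Beside such an error the gap between IMAT 1 and VAT 4 is small, so their order is not certain. Lower levels in bulk RNA cannot tell fewer cells of a type from less RNA per cell.

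The linked set of miR-29b-1-3p, -3-3p and -4-3p was lower in every IMAT library than in any SAT library, and very low in a single VAT library. miR-29b-1-3p had 22.8, 14.6, 1.18 and 16.4 CPM in VAT 1, 3, 4 and 5, all TMM-scaled. In SAT 1 to 5 it had 16.3, 21.9, 15.0, 12.5 and 16.5 CPM, and in IMAT 1 to 5 it had 7.56, 8.99, 9.74, 6.26 and 3.79 CPM. The IMAT libraries lay below all SAT libraries and below VAT 1, 3 and 5, but above VAT 4, where the entry had 12 reads beside 183 for miR-29b-2-3p. The means were 13.7 ± 9.08 CPM in VAT, 16.4 ± 3.46 in SAT and 7.27 ± 2.36 in IMAT. Between VAT and SAT the difference of the means was smaller than the spread of VAT.

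miR-29a and miR-29c were scarcer. miR-29a-5p had TMM-scaled levels of 1.49 to 18.5 CPM in VAT, 1.98 to 10.2 in SAT and 0 to 4.89 in IMAT, with means of 12.5 ± 7.53, 6.28 ± 3.67 and 2.35 ± 2.24 CPM. miR-29a-3p had means of 8.61 ± 7.69, 6.63 ± 3.21 and 2.48 ± 2.31 CPM in the same order. For both arms the means were ordered VAT, SAT, IMAT from high to low, but every pair of depots overlapped, VAT and IMAT included. The arms had identical counts in 8 of the 10 libraries where both were above 0, so they are not independent. miR-29c-3p, at 4.10 ± 4.74, 1.496 ± 2.14 and 2.98 ± 2.31 CPM, had no order beyond its spread and was listed at 0 in 6 libraries. miR-29c-5p had 1.26 ± 0.858, 2.26 ± 0.538 and 3.17 ± 1.77 CPM, the reverse order of miR-29a, from 3 to 20 reads per IMAT library. Its IMAT mean was raised by IMAT 4, where 4 reads stood for 6.26 CPM.

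**Figure D1:**
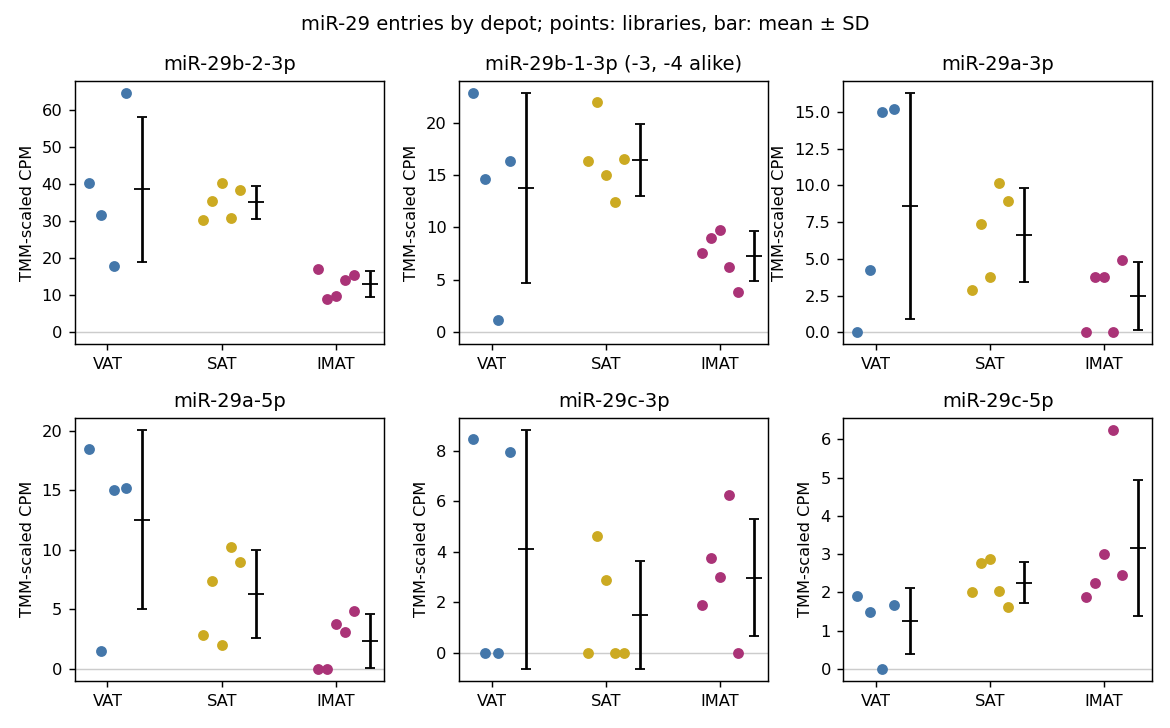
TMM-scaled CPM (y axis, linear) of the distinct miR-29 entries in each library of VAT, SAT and IMAT (x axis); black marks are the mean ± SD, and miR-29b-1-3p stands for its linked set. For miR-29b-2-3p the IMAT libraries, at 8.99 to 17.0 CPM, lie below all others, and for miR-29b-1-3p VAT 4 stands at 1.18 CPM.

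The first comparison set intramuscular against visceral adipocytes. Of the 8 entries 1 was called, miR-29b-2-3p, lower in IMAT, with a log2 fold change of -1.56 ± 0.42 (SE), a 95% interval of -2.46 to -0.67 and an edgeR quasi-likelihood adjusted p of 0.022 (Benjamini-Hochberg). Here a call is an adjusted p under 0.05, which 13.5% of the 327 tested entries had in this comparison and 5.81% had with a lower level in IMAT. It was also the 1 entry of the 8 whose depots did not overlap, with IMAT lower, against 5.5% of all entries. At an unadjusted p under 0.05 there were 2 of the 8, against 33.9% of all entries. Thus 1 called of 8 is close to the background for either direction and above those for a lower level in IMAT. The 2 of 8 are below their background. With 8 entries, 1 is the smallest count above 0. In every comparison the 8 entries are also not independent. The linked set carries the same reads, and the arms of miR-29a mostly had identical counts. Muscle miRNAs, described below, moved with the difference in miR-29b-2-3p, and their part in it was not tested.

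Of the other members, miR-29a-5p had the most negative estimate, -2.37 ± 1.07 (95% interval -4.67 to -0.07, adjusted p = 0.14). miR-29a-3p stood at -1.72 ± 1.23 (adjusted p = 0.37) and miR-29b-1-3p at -0.92 ± 0.64 (adjusted p = 0.35). miR-29b-3-3p and -4-3p, with the same reads, were at -0.87 ± 0.97 each. The intervals of these include a difference as large as that of miR-29b-2-3p. miR-29c-3p was at -0.53 ± 1.87 (adjusted p = 0.87), and miR-29c-5p alone had a positive estimate, 1.28 ± 0.93 (adjusted p = 0.38). Without VAT 4 the estimate of miR-29b-1-3p was -1.10 ± 0.41 (95% interval -1.98 to -0.22, adjusted p = 0.074), so its error shrank while it stayed uncalled.

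IMAT and SAT were compared in the same fit. Again 1 of the 8 entries was called, miR-29b-2-3p, lower in IMAT by -1.43 ± 0.40 (95% interval -2.28 to -0.57; edgeR adjusted p = 0.048). In this comparison 6.73% of all entries were called, 3.06% with a lower level in IMAT, and 25.7% had an unadjusted p under 0.05, against 1 of the 8. For 4 of the 8 entries, all of miR-29b, every IMAT library lay below every SAT library, which held for 13.8% of all entries. These 4 rest on 2 sets of reads at most, since miR-29b-2-3p and the linked set had equal counts in IMAT 2 and IMAT 3 and may share reads there. miR-29b-1-3p was at -1.18 ± 0.62 (95% interval -2.51 to 0.15, adjusted p = 0.25), and its linked entries at -1.16 ± 0.93 each (adjusted p = 0.48). Both arms of miR-29a, whose counts were mostly identical, had negative estimates, -1.34 ± 1.18 for 3p and -1.38 ± 1.012 for 5p. Both arms of miR-29c had positive ones, 0.91 ± 1.81 and 0.45 ± 0.87 (edgeR adjusted p = 0.44 to 0.80 for these 4 arms).

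SAT and VAT did not differ detectably in any member. None of the 8 entries was called by edgeR, where 12.5% of all entries were, none had an unadjusted p under 0.05 (24.8% of all entries), and none was called by DESeq2 or limma. For none did the depots separate, which they did for 16.2% of all entries. With TMM the difference of miR-29b-2-3p was -0.14 ± 0.41. Its 95% interval of -1.02 to 0.75 leaves out a change of the size estimated between IMAT and either other depot. This does not hold under every setting, for either difference. Without VAT 1, SAT minus VAT was -0.63 ± 0.50 (95% interval -1.71 to 0.45). That interval includes the -1.63 estimated between IMAT and VAT in the same fit. With median-ratio factors SAT minus VAT was -0.61 ± 0.42 and with DESeq2 -0.62 ± 0.39, beside -1.06 and -1.08 for IMAT minus SAT in the same fits. Without VAT 4 the TMM difference of miR-29b-2-3p between SAT and VAT was -0.70 ± 0.33 (95% interval -1.42 to 0.01, edgeR adjusted p = 0.19). That interval does include the -0.98 estimated between IMAT and SAT in the same fit. The intervals of the rest were wider, from -1.12 to 1.63 for miR-29b-1-3p up to -5.39 to 2.51 for miR-29c-3p, and cannot show that the depots are alike. The 3 comparisons share libraries pairwise, so they are not independent of each other.

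**Figure D2:**
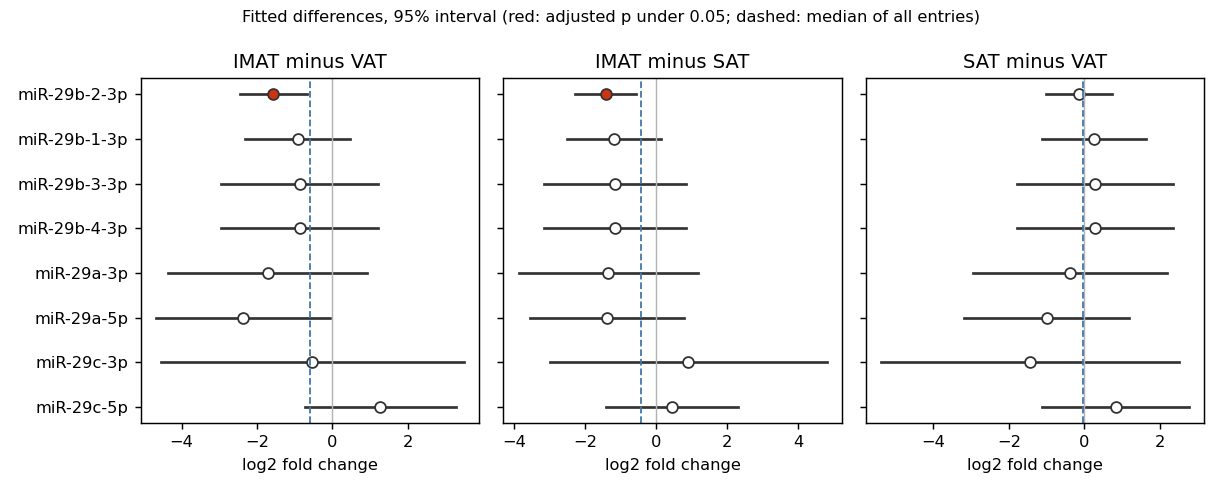
Log2 fold change (x axis) of each of the 8 miR-29 entries in each comparison, with its 95% interval from edgeR; filled red points have an adjusted p under 0.05 and the dashed line is the median of all 327 tested entries. miR-29b-2-3p is the called entry in both comparisons with IMAT, at -1.56 and -1.43, and no entry is called between SAT and VAT.

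The intramuscular libraries consisted largely of muscle miRNAs. The 9 tested entries of miR-1, miR-133, miR-206 and miR-499, which are made in heart and skeletal muscle, took 65.5 to 89.6% of the counts in IMAT. They took 3.37 to 11.9% in SAT and 0.0888 to 4.65% in VAT. Of these 9 entries 8 were higher in IMAT than in VAT and 8 higher than in SAT, and 5 were higher in SAT than in VAT, and none was at 0 throughout a depot. Every other miRNA of an IMAT library is thus counted against a total made mostly of muscle miRNAs. The scaling factors of TMM were 0.301 to 0.842 in IMAT and 1.09 to 1.93 in VAT and SAT.

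Summed over the 8 entries, the miR-29 level depended on what it was set against. As CPM of all counts it was 154 ± 65.0 in VAT, 139 ± 17.996 in SAT and 25.6 ± 10.2 in IMAT, and no IMAT library (13.8 to 40.8) reached any of the others (75.2 to 234). TMM-scaled, the sums were 105 ± 48.3, 100.6 ± 15.0 and 45.8 ± 5.06 CPM. IMAT then spanned 39.0 to 52.4 CPM, and VAT 4, at 49.2, lay within that range, but its sum holds the linked reads once and theirs up to 3 times. With the linked set counted once, the IMAT libraries, at 27.7 to 35.97 CPM, lay below VAT 4, still at 49.2, and below every other library. With identical arms also counted once, IMAT lay at 26.2 to 29.7 CPM, VAT 4 at 34.1 and the others at 51.6 or more. As CPM of the counts without the muscle miRNAs, the sums were 156 ± 65.3, 150.4 ± 16.3 and 140.7 ± 48.3. On that scale the 3 depots overlapped and their means differed by less than the spread of VAT or IMAT. They overlapped there as well with the linked set and identical arms counted once, at 52.3 to 161 in VAT, 81.4 to 100.8 in SAT and 53.2 to 121.6 in IMAT. The members were chosen with results of these data known, so the sum has no test.

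**Figure D3:**
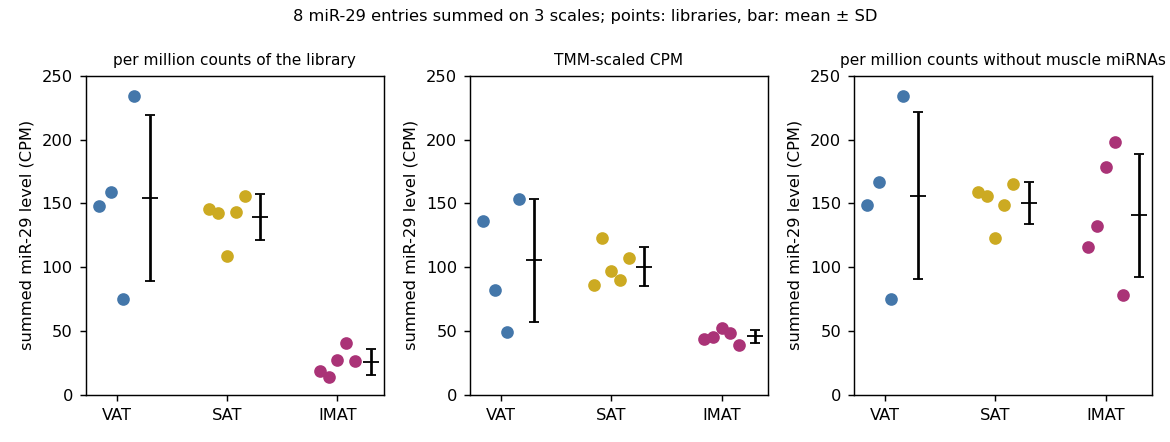
Summed level of the 8 miR-29 entries (y axis, CPM, linear from 0) in each library, set against all counts, after TMM scaling, and against the counts without muscle miRNAs; black marks are the mean ± SD. IMAT lies at 25.6 on the first scale and at 140.7 on the last, beside 156 in VAT and 150.4 in SAT.

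miR-29b-2-3p showed the same dependence. As CPM of the counts without muscle miRNAs it had 44.0, 64.0, 27.5 and 98.6 CPM in VAT 1, 3, 4 and 5. It had 56.2, 45.1, 51.4, 51.0 and 59.2 CPM in SAT 1 to 5, and 45.4, 26.1, 33.1, 57.6 and 30.9 CPM in IMAT 1 to 5. IMAT overlapped both other depots on this scale, with 2 of its 5 libraries within the range of SAT and 4 within that of VAT. With these totals the difference was -0.61 ± 0.43 from VAT and -0.46 ± 0.41 from SAT (edgeR adjusted p = 0.41 and 0.55). With muscle miRNAs left out but TMM scaling of the rest, it was -1.47 ± 0.42 and -1.04 ± 0.40 (edgeR adjusted p = 0.039 and 0.17). The call against VAT was thus kept on that scaling and lost with the unscaled totals. With all counts as totals it was -2.95 ± 0.52 and -2.70 ± 0.50 (adjusted p = 0.00086 and 0.0014).

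The split of all calls moved with the scaling too. With TMM 25 entries were called higher and 19 lower in IMAT than in VAT, with median-ratio factors 25 and 28, and with totals without muscle miRNAs 41 and 6. With library totals 18 of the 162 called were higher and the rest lower. Between IMAT and SAT the numbers higher and lower were 12 and 10 with TMM, 16 and 7 with median-ratio factors, 17 and 2 with totals without muscle miRNAs and 7 and 124 with library totals. Between SAT and VAT they were 24 and 17, 14 and 25, 14 and 13, and 19 and 14, in the order just given.

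The median log2 fold change of all tested entries moved with the scaling: between IMAT and VAT it was -0.60 with TMM, -0.66 with median-ratio factors, -1.98 with library totals, -0.51 with TMM without muscle miRNAs and 0.23 with totals without them. A scaling shifts all entries by about the same amount, so an entry's distance from that median is nearly constant by construction and only gives its place among the other miRNAs. For miR-29b-2-3p this distance was -1.02 to -0.84 over these 5 scalings. Between IMAT and SAT the distance ran from -1.004 to -0.89, and between SAT and VAT from -0.18 to -0.09. For miR-29b-1-3p it was -0.43 to -0.10 between IMAT and VAT and -0.79 to -0.64 between IMAT and SAT. For miR-29c-5p it was 1.88 to 2.12 and 0.87 to 1.09. The signs themselves were not all kept. With totals without muscle miRNAs, miR-29b-1-3p, its linked entries and miR-29c-3p had positive estimates between IMAT and VAT (0.13, 0.18 and 0.83), and with library totals both arms of miR-29c had negative ones between IMAT and SAT (-0.15 and -0.72). With TMM, 23.5% of all entries lay further down than miR-29b-2-3p between IMAT and VAT, and 20.5% between IMAT and SAT.

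**Figure D4:**
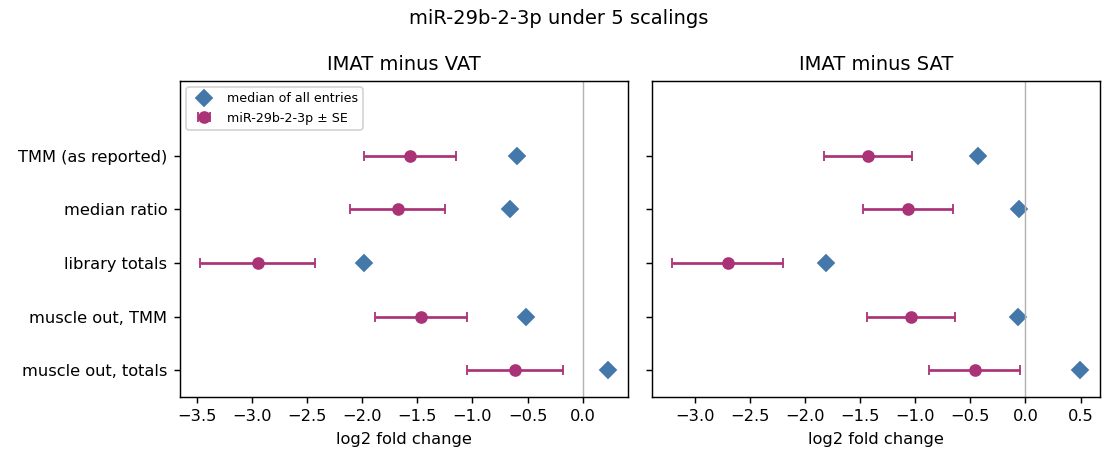
Log2 fold change of miR-29b-2-3p (points, ± SE) and the median over all tested entries (diamonds) under 5 scalings, for IMAT against VAT and against SAT. Both move together from library totals (-2.95 and -1.98 against VAT) to totals without muscle miRNAs (-0.61 and 0.23).

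The call of miR-29b-2-3p depended on single libraries. Against VAT it was lost without VAT 1, VAT 5, IMAT 1, IMAT 2, IMAT 3 or IMAT 4 (edgeR adjusted p = 0.053, 0.060, 0.058, 0.077, 0.062 and 0.057). Against SAT it was kept without VAT 4 or VAT 5 (0.045 and 0.031) and lost without any 1 of the other 12 libraries (0.057 to 0.29). The estimate against SAT was -1.09 to -0.88 without VAT 1, VAT 4 or any 1 IMAT library. It was -1.47 to -1.34 without VAT 3, VAT 5 or any 1 SAT library. Over all 25 alternatives the estimate was negative in 25 in both comparisons, and it was called in 15 against VAT (adjusted p = 0.00037 to 0.41) and in 6 against SAT (0.00038 to 0.55).

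The make-up of the family needs no scaling between libraries, but it depends on how shared reads are counted. With the linked set counted once and both arms of miR-29a and miR-29c added, miR-29b had the largest share in 13 of the 14 libraries. When a count that both arms had in a library was also taken once there, an alternative chosen after seeing the data, miR-29b had the largest share in all 14. On that second count miR-29b-2-3p took 43.9 to 61.1% in VAT, 49.2 to 63.1% in SAT and 32.4 to 64.3% in IMAT, and the linked set 3.45 to 27.4%, 22.4 to 31.7% and 14.3 to 37.1%. The depots overlapped for both. Neither count took miR-29b-2-3p and the linked set once where their counts were equal, which was so in IMAT 2 and IMAT 3. The lowest shares of miR-29b-2-3p in IMAT, 32.4% in IMAT 2 and 37.1% in IMAT 3, come from these libraries.

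VAT 4 was the library in which the counting mattered most. There miR-29a took 61.1% of the family with its 2 arms added and 43.97% with their identical count of 153 taken once, beside 52.6% for miR-29b-2-3p. In the other VAT libraries miR-29a took 10.7 to 20.1% on the second count, and the linked set took 15.5% or more, against 3.45% in VAT 4. miR-29c took 7.78 to 34.8% in IMAT with its arms added and 7.14 to 21.6% with identical counts taken once, where SAT had 2.46 to 10.2% and VAT 0 to 11.3%. The miR-29c shares in IMAT rest on 0 to 5 reads of miR-29c-3p and 3 to 20 of miR-29c-5p per library. The whole family had 23 to 257 reads per IMAT library on the first count and 19 to 217 on the second.

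**Figure D5:**
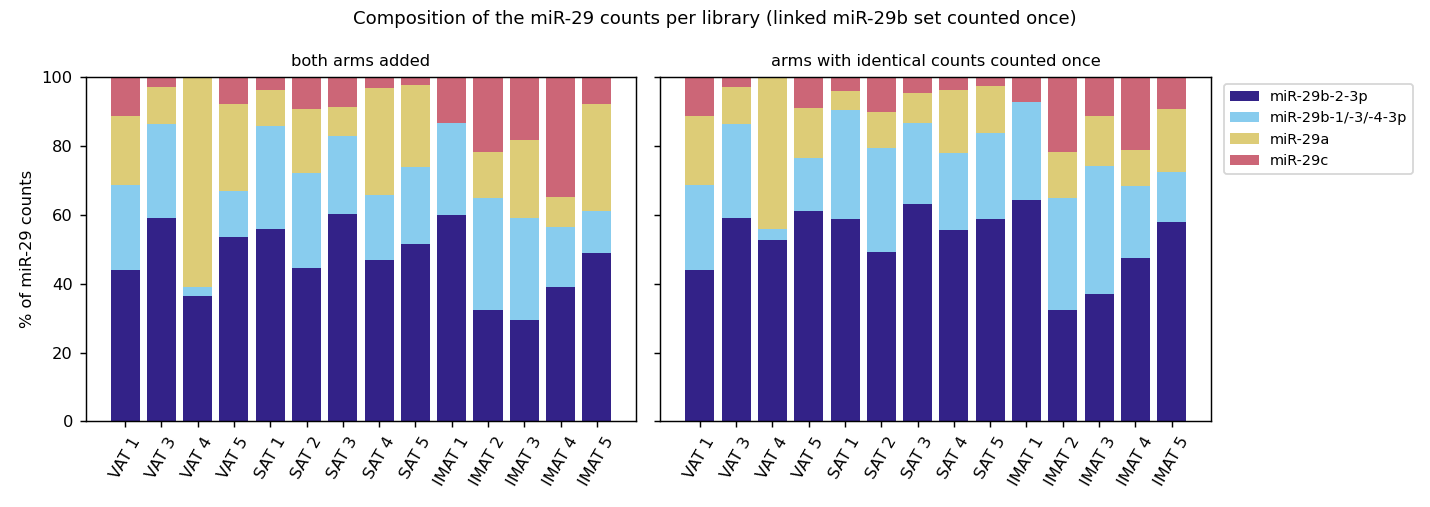
Share of the miR-29 counts (y axis, %) taken by each set of entries in each library (x axis), with the linked miR-29b set counted once; on the left both arms are added, on the right arms with identical counts in a library are counted once there. From left to right the share of miR-29a in VAT 4 goes from 61.1 to 43.97%, and that of miR-29c in IMAT 4 from 34.8 to 21.1%.

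The entries with the most similar profiles differed between the distinct forms of miR-29b. Over the 14 libraries, among 149 named entries above 0 in each, log2(TMM-scaled CPM + 1) of miR-29b-2-3p had its highest Pearson r with miR-146d-5p (0.89), miR-21a-5p (0.88), miR-19d-3p (0.80), miR-21b-5p (0.79) and miR-146a-5p (0.76). For miR-29b-1-3p these were miR-93a-5p (0.94), miR-737-5p (0.91), miR-26b-5p (0.85), miR-24a-4-3p (0.84) and miR-148b-3p (0.82). No entry was in both lists of 5. The points share libraries, depots and scaling factors, so these values are descriptions only.

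Other miRNAs linked to the family's known themes did not move as a block. As background for the insulin and the matrix lists, 13.5% of all tested entries were called in either direction between IMAT and VAT. The background was 12.5% between SAT and VAT and 6.73% between IMAT and SAT. Of 22 tested entries of miRNAs tied to insulin and lipid metabolism, 2 were higher and 2 lower in IMAT than in VAT, 1 higher and 1 lower in SAT than in VAT, and 1 higher in IMAT than in SAT. Their median log2 fold changes were -0.17, -0.02 and -0.36, beside -0.60, -0.05 and -0.43 for all entries. miR-27b-3p, which restrains adipocyte formation in mammals, was higher in SAT than in VAT by 2.03 ± 0.37 (edgeR adjusted p = 0.0025). The liver miRNA miR-122-5p was lower in SAT than in VAT by -4.22 ± 0.65 (adjusted p = 0.0013), and both also differed in the same direction between IMAT and VAT (1.65 ± 0.36 and -2.67 ± 0.61, adjusted p = 0.0063 and 0.0087). miR-26d-5p was higher in IMAT by 5.95 ± 0.70 against VAT and 4.19 ± 0.58 against SAT (adjusted p = 0.00013 and 0.0018). In IMAT against VAT, miR-27c-3p was lower, at -1.22 ± 0.33 (adjusted p = 0.022).

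Of 36 tested entries of miRNAs tied to matrix and fibrosis, 2 were higher and 1 lower in IMAT than in VAT and in SAT than in VAT, and 2 were higher in IMAT than in SAT. The higher ones were in each case the 2 entries of miR-133a, a muscle miRNA. Their counts were identical in 8 of 14 libraries and differed by at most 0.0453% in the others, so they stand for 1 set of reads, with an estimate of 3.34 ± 0.90 in SAT against VAT (edgeR adjusted p = 0.028). The lower one was miR-192a-5p, which is also among the gut and liver miRNAs below. It stood at -1.70 ± 0.39 in IMAT and -1.28 ± 0.39 in SAT against VAT (edgeR adjusted p = 0.0087 and 0.044). The medians of the 36 entries, -0.64, -0.11 and -0.40, lay close to those of all entries.

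Among markers of other cells, calls occurred in the skin and epithelial list and in the gut and liver list. Of all tested entries 13.5% were called between IMAT and VAT, 12.5% between SAT and VAT and 6.73% between IMAT and SAT. The shares of the lists given below are of unscaled totals, which in IMAT are mostly muscle miRNAs. The calls come from the TMM-scaled fit, so a list can have a lower share in IMAT and entries called higher there. Stromal and smooth muscle miRNAs took 1.03 to 2.50% of the counts in IMAT, 7.60 to 10.9% in SAT and 2.42 to 6.42% in VAT, with no call among 7 entries in any comparison, and the endothelial miR-126 (1 entry) took 0.506 to 1.40%, 5.21 to 8.24% and 1.23 to 4.37%, also with no call. White blood cell miRNAs (3 entries, no call) were at 0.00352 to 0.0169%, 0.0233 to 0.0616% and 0.0356 to 0.112%. Red blood cell miRNAs (2 entries, no call) were at or below 0.00384% in every library. Skin and epithelial miRNAs were at 0.00526 to 0.0403% in IMAT, 0.0538 to 0.163% in SAT and 0.0541 to 0.120% in VAT, with 4 of 12 entries called higher in IMAT than in VAT, 4 higher in SAT than in VAT and 1 lower in IMAT than in SAT. Gut and liver miRNAs were at 0.00244 to 0.00799%, 0.00785 to 0.0165% and 0.0493 to 0.0697%, and all 3 entries were lower in IMAT and 2 lower in SAT than in VAT. No list of miRNAs that define adipocytes was used, so the labelled cell type was not checked on one. The part of these cells in the miR-29 levels was not tested.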

How the data were processed

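Small RNA libraries of mature adipocytes (adult rainbow trout; adipocytes released with collagenase type II, RNA in TRIzol, per the labels' protocols) were assigned to depots by their titles. The deposited table gives read counts per miRNA entry, not scaled by the authors. A second deposited column per library, headed TPM, equals CPM of the library total without the first entry, within 0.005. Per the submitters' processing notes, Trimmomatic 0.30 and edgeR 3.4.6 took part, in no stated role. The aligner and the build were not given in the sources used here. Left out were 2 columns of values, headed V2 and V2_TPM, whose name fits no sample. Columns of the visceral libraries carry the same letter, so these may belong to a visceral replicate 2, but no label says so. The counts were tested with edgeR 4.0.16 (R 4.3.3; quasi-likelihood, two-sided, TMM, 14 libraries in 1 fit, depot only) over the 327 entries above 0 in at least 4 libraries, with Benjamini-Hochberg adjustment per comparison. The SE is the log2 fold change divided by the root of F. Entries were linked when, over at least 4 libraries with both above 0 and at least 20 reads in 1 of them, they differed by no more than 2 reads or 10%; the whole table held 52 such sets with 121 entries. Linked entries add their reads to library totals more than once.

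The alternatives used DESeq2 1.42.0, limma 3.58.1 on log2(CPM + 1), other scalings and filters, joined entries, a replicate block and each library left out. All members are named, with the 5 most similar entries of each member above 0 in every library, and every called entry of the insulin and matrix lists at or above the median level. The members and lists were chosen with earlier results of these data known. Library totals ran from 759369 to 11843805. The Clopper-Pearson intervals of single libraries cover counting error only, and amplified reads are not independent molecules. The intervals of the log2 fold changes come from the edgeR fit and cover the spread among libraries.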

Additional observations from a re-analysis of the deposited data

Results flagged for a closer look

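In a check of the highest and lowest library of each depot, over each of the 8 miR-29 entries and their sum (27 groups, of which chance alone would mark about 1 in 20), 1 value stood apart. miR-29c-5p in IMAT 4 had a TMM-scaled level of 6.26 CPM, against 1.89 to 2.996 CPM in the other IMAT libraries. It rests on 4 reads in the library with the fewest counts (759369), where 3 counts stand for 3.95 CPM before scaling.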

How the results depend on the processing

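The estimate of miR-29b-2-3p stayed negative in both comparisons with IMAT under all 25 alternatives, but its call did not, and its fold changes move with the scaling. For a fold change, an alternative was the same if it kept direction and side of the threshold. For numbers of called entries, summed levels and shares it was the same if close to the main value, and otherwise moved. Of 782 alternative values for all results, 618 were the same, 29 lost and 14 gained a call, 70 moved and 51 reversed. The reversed ones were all of estimates that were uncalled. The cause of these changes was not tested. Limits are the few reads in IMAT, the shared reads, the zeros in VAT and the muscle miRNAs.

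Between IMAT and VAT, 44 entries and 1 miR-29 entry were called. With library totals these were 162 and 3, with DESeq2 86 and 2, and with limma 176 and 4. They were 26 and 0 with no low-count filter, 27 and 0 with only the 2 depots fitted, 33 to 68 and 0 to 1 with each library left out, and 0 for miR-29 with totals without muscle miRNAs. miR-29b-2-3p then stood at -0.61 with totals without muscle miRNAs, -1.54 with no filter, -1.36 with the 2 depots (adjusted p = 0.41, 0.25 and 0.16) and -1.69 to -1.29 with each library left out. Under TMM without muscle miRNAs it stayed called, at -1.47 (edgeR adjusted p = 0.039). With totals without muscle miRNAs, miR-29b-3-3p and -4-3p were at 0.18, miR-29b-1-3p at 0.13 and miR-29c-3p at 0.83, and miR-29c-3p ran from -0.94 to 0.043 with libraries left out.

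Between SAT and VAT, 41 entries were called, against 27 with totals without muscle miRNAs, 17 with no filter, 63 with DESeq2 and 26 to 48 with each library left out. miR-29b-3-3p and -4-3p were at -0.17 with median-ratio scaling and with DESeq2, -0.13 with no filter, -0.094 with at least 10 reads in 4 libraries, -0.039 with the 2 depots and -0.43 to 0.38 with libraries left out. miR-29b-1-3p was at -0.19 with median-ratio scaling and DESeq2, -0.15 with no filter, -0.11 with at least 10 reads in 4 libraries, -0.067 with the 2 depots, -0.0098 with TMM without muscle miRNAs and -0.43 to 0.35 with libraries left out. miR-29b-2-3p ran from -0.70 to 0.14, and miR-29a-3p was at 0.13 with limma.

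Between IMAT and SAT, 22 entries and 1 miR-29 entry were called. These were 131 and 4 with library totals, 174 and 6 with limma, 47 with DESeq2, 38 with the 2 depots, 11 and 0 with no filter, and 15 to 47 and 0 to 1 with libraries left out. The miR-29 count was 0 with median-ratio scaling, with muscle miRNAs left out on either scaling, with at least 10 reads in 4 libraries and with linked entries joined. miR-29b-2-3p then stood at -1.06, -0.46 (totals), -1.04 (TMM), -1.01 and -0.97, at -1.01 with no filter, and at -1.47 to -0.88 with libraries left out. miR-29c-3p was at -0.15 and miR-29c-5p at -0.72 with library totals, and miR-29c-5p at -0.61 with limma.

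Whether the replicate numbers pair the libraries is in no label. Same-numbered libraries of different depots correlated at -0.24 to 0.19 in their deviations from the depot mean, with 3 of 13 pairs over 0.1. Differently numbered ones ran from -0.29 (SAT 2 with IMAT 3) to 0.35 (VAT 1 with IMAT 3). With so few libraries per depot these values cannot exclude a pairing. With the replicate block 28 entries were called between IMAT and VAT and 27 between SAT and VAT, with 0 of miR-29 in either comparison with IMAT. miR-29b-2-3p was then at -1.43 against VAT and -1.46 against SAT (adjusted p = 0.097 and 0.095), at 0.033 between SAT and VAT, and miR-29a-3p at 0.41 there.

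The summed level was 154, 139 and 25.6 CPM in VAT, SAT and IMAT with library totals and 156, 150.4 and 140.7 without muscle miRNAs. Counting the linked set once gave 78.9, 68.2 and 31.3, and counting identical arms once as well gave 71.3, 61.8 and 27.3. The share of miR-29b-2-3p was 36.7, 35.2 and 29.2% when each linked entry was counted and 54.2, 57.1 and 47.9% when identical arms were counted once. Counting shared reads or arms once in the shares, counting arms once in the sum, and leaving libraries out of the summed level were chosen after seeing the data.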
